A study of Homo sapiens with 4 samples.

Results

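A group of basement membrane genes, 9 of the 58735 genes counted, was followed in MHCC-97H cells, an established metastatic hepatocellular carcinoma (HCC) line. They encode 3 laminin α chains (LAMA3, LAMA4 and LAMA5), 3 β chains (LAMB1, LAMB2 and LAMB3), a γ chain (LAMC1), nidogen-1 (NID1) and nephronectin (NPNT). They are a selection from these gene families, chosen with earlier results of these data known, and NPNT was selected on its high level in the PBS library, so the comparison of NPNT with PBS is a description. Each condition had 1 library, 4 in all and no replicates, so no test between conditions was possible. One library was labelled as wild-type cells given PBS for 24 h, and the others were labelled as the same line given 2 μg of migrasomes (Migs), vesicle-bearing organelles that migrating cells leave behind on their retraction fibers. The Migs were collected from donor MHCC-97H cells, kept in normoxia for normo-Migs and in hypoxia for hypo-Migs, or from CD147 knockout MHCC-97H cells kept in hypoxia for CD147KO-Migs. The knockout lay in the cells that released the Migs, not in the cells sequenced, so the CD147 gene is no check of the labels here.

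Laminins are secreted trimers of an α, a β and a γ chain that polymerize into the first sheet of a basement membrane. Nidogens bridge this sheet to the collagen IV network, and integrins and dystroglycan anchor cells to the laminin α chains. Nephronectin is a basement membrane ligand of integrin α8β1 and is best known from kidney development. In normal adult liver, hepatocytes face a matrix poor in laminin, and laminins accumulate around the vessels and tumor nests of HCC. The study used these libraries to ask whether hypo-Migs carrying CD147 turn on signaling needed for vasculogenic mimicry, in which tumor cells form vessel-like channels bounded by a basement membrane.

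Bases before the start sites of NPNT and NID1 are shown because these genes had the widest differences between the PBS library and the Mig libraries, in opposite directions. Both stretches come from the RefSeq promoter windows on GRCh38.p14, and capitals mark the GC box GGGCGG or its reverse complement CCGCCC. Each is cut where a GENCODE release 29 exon begins, so it stops short of the RefSeq start site. No GENCODE release 29 exon overlaps either stretch, although the NPNT stretch lies within the first intron of a transcript that starts further upstream.

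NPNT, chr4:105895221-105895436, + strand: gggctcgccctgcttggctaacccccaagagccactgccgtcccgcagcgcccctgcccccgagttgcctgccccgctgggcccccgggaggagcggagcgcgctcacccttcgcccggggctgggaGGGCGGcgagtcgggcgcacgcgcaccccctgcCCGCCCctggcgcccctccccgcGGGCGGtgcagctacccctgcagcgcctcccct

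NID1, chr1:236065163-236065340, − strand: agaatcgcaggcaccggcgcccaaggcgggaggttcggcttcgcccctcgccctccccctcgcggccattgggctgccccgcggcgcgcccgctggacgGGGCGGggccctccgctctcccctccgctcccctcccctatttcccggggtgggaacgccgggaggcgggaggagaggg

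The windows of 300 bases, from 250 bases before to 50 bases after each start, were found for all 9 genes. NPNT and NID1 had the same number of CpG pairs in the window, 36 each, against a median of 14 over 35116 windows. The shorter stretches printed above, of 216 and 178 bases, hold 24 and 22 CpG pairs. NPNT held 3 GC boxes and NID1 held 1, and 45.0% of all windows held at least 1 on either strand. LAMA5 and LAMC1 had 41 CpG pairs each with 5 and 3 GC boxes, and LAMB1 had 35 with 4. LAMA4 had the fewest CpG pairs among the genes with a single window, 8, and no GC box. The TATA box TATAAA, searched on both strands and present in 11.5% of windows, was in none of the windows of the 9 genes. The same was true of ACGTG, the core bound by hypoxia-inducible factors (21.4% of windows), and of CATATG, an E box of TWIST-type factors (3.04%). These matches describe the letters of the windows only.

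The PBS library stood apart from the Mig libraries. Of the 58735 genes, 251 had at most 3 reads in the PBS library and at least 100 in each Mig library, and no Mig library had any such gene of its own. Reads on genes numbered between 33882496 and 40285223 per library. The labelled cell type was hepatocellular carcinoma, but the hepatocyte markers ALB, APOB, TTR and AFP had 0 reads in all 4 libraries. The 10 hepatocyte markers summed to 4.98 CPM (reads per 1000000 reads on genes) in PBS and 21.1 to 28.6 CPM with Migs. Of the 10, 3 had more than 3 reads in PBS and 3 to 5 with Migs. Most of the sum with Migs was FGB, with 0 reads in PBS and 561 to 832 with Migs (16.5 to 23.8 CPM). SERPINA1 went the other way, with 25 reads in PBS and 2 to 10 with Migs. AHSG had 9 to 11 reads in every library, and HNF4A lay at 3.88 CPM in PBS and 4.03 to 6.13 CPM with Migs. The 5 epithelial markers summed to 4467 CPM in PBS and 5590 to 6619 CPM with Migs, with the E-cadherin gene CDH1 at 0 reads in PBS only and the keratin gene KRT19 at 11287 reads in PBS against 32 to 75. The 8 fibroblast markers summed to 23.6 CPM in PBS, where LUM and PDGFRA had 0 reads, and to 209 to 221 CPM with Migs. More than 3 reads were seen for 5 of the 8 in PBS and for 6 in each Mig library. The 7 endothelial markers summed to 29.4 CPM in PBS and 37.3 to 41.6 CPM with Migs, the 6 blood cell markers to 0.637 and 1.44 to 2.51 CPM, with CD3E, MS4A1 and HBB at 0 reads throughout, and the 4 vascular smooth muscle markers to 4.84 and 4.26 to 6.05 CPM. The part of these shifts in the results below was not tested, and in bulk RNA fewer cells of a type cannot be told apart from less RNA per cell. Whether the PBS library came from the same cells as the Mig libraries was not tested, so in every ratio to PBS a difference between the cells cannot be told apart from the treatment. Comparisons among the 3 Mig libraries do not use it.

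**Figure D1:**
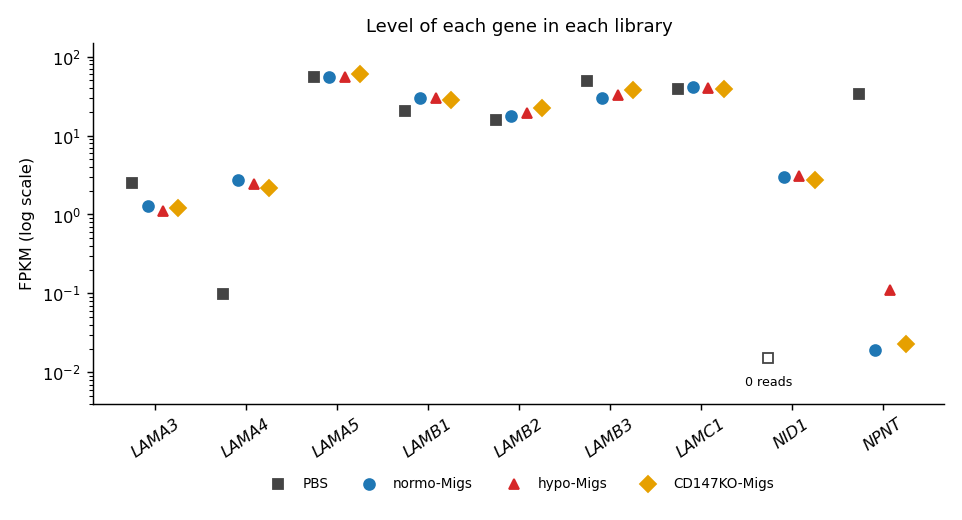
Levels of the 9 genes in FPKM (reads scaled by gene length and library size) on a log scale, with a point for each of the 4 libraries and an open symbol for NID1 in PBS, which had 0 reads and is drawn at the level of 3 reads. LAMA5 lay between 54.8 and 59.5 FPKM in every library, whereas LAMA4, NID1 and NPNT in the PBS library lay far from their levels in the Mig libraries.

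Among the α chains, LAMA5 encodes the chain that is widespread in adult epithelial and endothelial basement membranes. LAMA5 (ENSG00000130702, chr20:62307955-62367312, − strand of GRCh38) had 27068 reads in PBS, and 26960, 31693 and 30074 in the normo-Migs, hypo-Migs and CD147KO-Migs libraries. These correspond to 54.8, 54.9, 54.8 and 59.5 FPKM, the highest level of the 9 genes in each library. Ratios were taken between libraries after scaling, with 2 reads added before the log2. Exact 95% intervals were taken from the reads with none added and cover counting error only, not the spread between cultures. They treat reads as independent, which copies from PCR are not, so they may be too narrow. The log2 ratio of LAMA5 to PBS was 0.01 (−0.01 to 0.04) with normo-Migs, 0.01 (−0.01 to 0.03) with hypo-Migs and 0.13 (0.11 to 0.15) with CD147KO-Migs. The first and second of these have no settled sign, as they turned slightly negative under each of the other scalings tried. The CD147KO-Migs library was thus the highest of the 4 for LAMA5, by 1.09-fold over PBS. LAMA5 overlaps the proteasome gene ADRM1 on the opposite strand by 244 exonic bases, and strand handling in the counting is not given in the sources used here, so reads in the shared bases cannot be told apart from those of ADRM1, which had 3495 to 4499 reads in all.

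LAMA4 encodes the chain typical of endothelial and mesenchymal basement membranes. LAMA4 (ENSG00000112769, chr6:112108760-112254939, − strand) had 39 reads in the PBS library, against 1103 (normo-Migs), 1146 (hypo-Migs) and 876 (CD147KO-Migs) in the Mig libraries. The PBS library was far below the Mig libraries, at 0.0974 FPKM against 2.14 to 2.77 FPKM. The log2 ratio to PBS was 4.77 (4.38 to 5.34), 4.59 (4.20 to 5.16) and 4.40 (4.01 to 4.97) with normo-Migs, hypo-Migs and CD147KO-Migs. LAMA4 was therefore 27.4-, 24.1- and 21.1-fold higher with Migs. The summed fibroblast markers given above were higher in the same libraries, although their 8 genes did not move as one. THY1 had 11 reads in PBS and 1681 to 2082 with Migs, and PDGFRB had 70 and 1747 to 2446. Both were at least 2-fold higher in all 3 Mig libraries, as were COL1A1, DCN, LUM and 14.2% of all genes compared. COL3A1 was not, with 27 reads in PBS and 14 to 27 with Migs. COL1A2, with 2 reads in PBS and 0 with Migs, and PDGFRA, with at most 1 read in any library, had too few reads to compare.

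LAMA3 encodes the chain of the laminin under hemidesmosomes, the junctions that fix epithelial cells to their basement membrane, where it pairs with the product of LAMB3. LAMA3 (ENSG00000053747, chr18:23689443-23956222, + strand) had 1273 reads in PBS, and 641, 665 and 626 in the normo-Migs, hypo-Migs and CD147KO-Migs libraries. In FPKM it stood at 2.51 in PBS and between 1.12 and 1.27 with Migs, so the PBS library was the highest. The log2 ratio to PBS was −0.97 (−1.11 to −0.83) with normo-Migs, −1.15 (−1.29 to −1.02) with hypo-Migs and −1.04 (−1.19 to −0.91) with CD147KO-Migs. LAMA3 thus lay on both sides of a 2-fold difference, and its intervals with normo-Migs and CD147KO-Migs include it.

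Among the β chains, LAMB1 encodes the most widely used one. LAMB1 (ENSG00000091136, chr7:107923799-108003255, − strand) had 5831 reads in the PBS library, against 8474 (normo-Migs), 9779 (hypo-Migs) and 8096 (CD147KO-Migs) in the Mig libraries. Its level was lowest in PBS, at 20.7 FPKM against 28.1 to 30.3 FPKM. The ratio to PBS was 1.47-, 1.44- and 1.37-fold with normo-Migs, hypo-Migs and CD147KO-Migs. LAMB1 shares 70 exonic bases with DLD, a mitochondrial dehydrogenase gene on the opposite strand with 5075 to 6232 reads.

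LAMB2 encodes the β chain of neuromuscular, glomerular and vascular basement membranes. LAMB2 (ENSG00000172037, chr3:49121114-49133118, − strand) had 3700 reads in PBS, and 4199, 5354 and 5359 in the normo-Migs, hypo-Migs and CD147KO-Migs libraries. Levels were 15.6, 17.8, 19.3 and 22.1 FPKM in this order, so PBS was lowest and CD147KO-Migs highest. The log2 ratio to PBS was 0.20 (0.14 to 0.27), 0.32 (0.25 to 0.38) and 0.51 (0.45 to 0.57).

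LAMB3 is the partner of LAMA3 in the hemidesmosomal laminin. LAMB3 (ENSG00000196878, chr1:209614870-209652466, − strand) had 7873 reads in the PBS library, against 4840 (normo-Migs), 6275 (hypo-Migs) and 6334 (CD147KO-Migs) in the Mig libraries. At 48.6 FPKM, PBS was above the 30.0, 33.1 and 38.2 FPKM of normo-Migs, hypo-Migs and CD147KO-Migs. The log2 ratio to PBS was −0.68 (−0.74 to −0.63), −0.54 (−0.59 to −0.50) and −0.33 (−0.38 to −0.29). LAMA3 and LAMB3 were the laminin genes with their highest level in the PBS library, and neither was 2-fold lower in all 3 Mig libraries, although LAMA3 was when only library totals were used for scaling.

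LAMC1 encodes the γ chain found in most laminins. LAMC1 (ENSG00000135862, chr1:183023460-183145592, + strand) had 11394 reads in PBS, and 11931, 13798 and 11557 in the normo-Migs, hypo-Migs and CD147KO-Migs libraries. Its levels of 39.2, 41.3, 40.5 and 38.9 FPKM were close to each other, and its widest log2 ratio between any pair of libraries, 0.09, was the smallest of the 9 genes. The log2 ratio to PBS was 0.09 (0.05 to 0.12) with normo-Migs, 0.06 (0.02 to 0.09) with hypo-Migs and −0.00058 (−0.04 to 0.04) with CD147KO-Migs. The hypo-Migs value was −0.008 when the median of genes of like length was subtracted.

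NID1 encodes nidogen-1, the rod-like protein that binds the γ1 chain and collagen IV. NID1 (ENSG00000116962, chr1:235975830-236065162, − strand) had 0 reads in the PBS library, against 596 (normo-Migs), 734 (hypo-Migs) and 572 (CD147KO-Migs) in the Mig libraries. For a ratio, the count of 0 in PBS was set to 3 reads, which is 0.0885 CPM there. With PBS set at 3 reads NID1 was 201-, 210- and 188-fold higher with normo-Migs, hypo-Migs and CD147KO-Migs. Its counting intervals, taken from the count of 0, began lower, at 163-, 171- and 152-fold. Its level with Migs, 2.76 to 3.09 FPKM, was nevertheless low next to the laminin chains LAMA5, LAMB1, LAMB2, LAMB3 and LAMC1.

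NPNT was the gene with the opposite pattern. NPNT (ENSG00000168743, chr4:105894775-106004027, + strand) had 7181 reads in PBS, and 4, 27 and 5 in the normo-Migs, hypo-Migs and CD147KO-Migs libraries. At 33.9 FPKM it ranked 1357th of all genes in PBS, above LAMB1 and LAMB2, whereas with Migs it was at 0.0190, 0.109 and 0.0231 FPKM. The ratio of scaled reads, without added reads, was 1772-fold lower with normo-Migs (interval 692 to 6506), 309-fold lower with hypo-Migs (212 to 470) and 1457-fold lower with CD147KO-Migs (624 to 4490). The antisense gene AC109361.2, which shares 172 exonic bases with NPNT, had 12 reads in PBS and 0 in each Mig library. The gene for the nephronectin receptor subunit, ITGA8, had 0 reads in all 4 libraries.

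**Figure D2:**
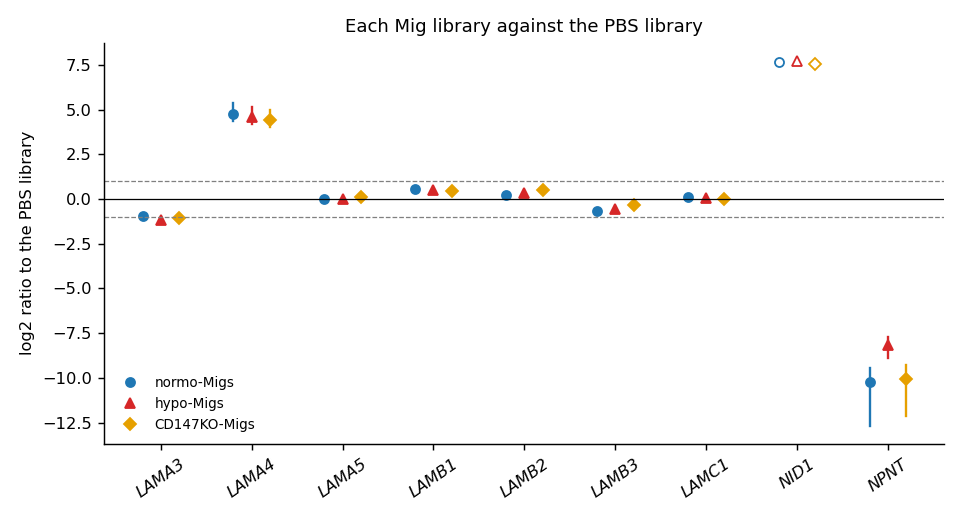
The log2 ratio of each Mig library to the PBS library for the 9 genes. Bars are exact 95% counting intervals, and dashed lines mark a 2-fold difference. Open symbols are for NID1, drawn with its PBS count of 0 set to 3 reads. LAMA4 and NID1 lie above the lines, NPNT lies below them, between −8.16 and −10.23, and LAMA3 lies at the lower line.

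Counting a gene as different where the log2 ratio reached 1 in the same direction in all 3 Mig libraries, 2 of the 9 genes were higher with Migs (LAMA4 and NID1), 1 was lower (NPNT) and 6 were neither. All 9 had at least 10 reads in at least 1 library, the limit for a gene to be compared. By the same rule, 2834 of the 19895 genes compared, or 14.2%, were higher in all 3 Mig libraries, and 1412, or 7.1%, were lower. With 9 genes chosen in knowledge of these data, nothing is read from their counts against these shares. The median log2 ratio of the 9 genes was 0.09, 0.06 and 0.13 with normo-Migs, hypo-Migs and CD147KO-Migs, beside 0.03, 0.04 and 0.03 over all genes compared. The 3 comparisons share the PBS library.

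Ordered by FPKM, the genes stood as LAMA5, LAMB3, LAMC1, NPNT, LAMB1, LAMB2, LAMA3, LAMA4 and NID1 in PBS, and no neighbours had overlapping counting intervals. With normo-Migs, the order was LAMA5, LAMC1, LAMB1, LAMB3, LAMB2, NID1, LAMA4, LAMA3 and NPNT. Here LAMB1 (30.3 FPKM, 29.6 to 30.9) and LAMB3 (30.0 FPKM, 29.2 to 30.9) could not be separated by counting error, nor could NID1 (2.96 FPKM) and LAMA4 (2.77 FPKM). In the other two Mig libraries, LAMB3 stood ahead of LAMB1 and the rest of the order was that of normo-Migs. With CD147KO-Migs the intervals of LAMC1 (38.9 FPKM) and LAMB3 (38.2 FPKM) overlapped. Spread between cultures was not measured, so these orders hold for the libraries only. They also depend on the gene length used, the union of all exons. For LAMA4 this is 11575 bases and the longest transcript is 6547, whereas NID1 has 5864 by both. For NPNT the lengths are 6117 and 4598, and for LAMC1 8406 and 7889. The places of LAMA4 and NID1 with Migs, and of NPNT and LAMC1 in PBS, therefore rest on the choice of length.

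The comparisons of hypo-Migs with the other Mig libraries ask what hypoxia and CD147 of the releasing cells add. Normo-Migs and CD147KO-Migs differ in both, so their comparison isolates neither. A 2-fold difference was passed by 1 of the 9 genes when hypo-Migs were set against normo-Migs, by 1 against CD147KO-Migs, and by 0 when normo-Migs were set against CD147KO-Migs. Over all genes compared, 9.34%, 9.12% and 9.69% passed in these comparisons. Among the 13601 genes averaging 50 reads or more over the 4 libraries, 0.647%, 0.544% and 0.691% passed. The gene in both cases was NPNT, with 27 reads for hypo-Migs against 4 and 5. NPNT averages 50 reads or more only through its 7181 reads in PBS, so the shares of these deeper genes are no measure for it. Its ratio of scaled reads was 5.73-fold to normo-Migs (interval 2.00 to 22.5) and 4.71-fold to CD147KO-Migs (1.79 to 15.7). With 2 reads added the log2 ratios were 2.07 and 1.88. Both folds rest on few reads, at a level of 0.109 FPKM, and fell below 2-fold when computed on FPKM with 0.1 added (log2 0.81 and 0.76).

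LAMB3 and LAMB2 differed between Mig libraries by less than 2-fold but beyond counting error. LAMB3 was higher with hypo-Migs than with normo-Migs by a log2 ratio of 0.14 (0.08 to 0.19), and lower than with CD147KO-Migs by −0.21 (−0.26 to −0.16). From normo-Migs to CD147KO-Migs the difference was largest, at −0.35 (−0.40 to −0.29). LAMB2 followed the same order, with 0.11 (0.06 to 0.17), −0.20 (−0.25 to −0.14) and −0.31 (−0.37 to −0.25). For both genes the order was thus normo-Migs, hypo-Migs, CD147KO-Migs. Among the 6960 genes that averaged 1000 reads or more, a limit chosen after the data were seen, 1.01% differed between normo-Migs and CD147KO-Migs by at least as much as LAMB3 and 1.59% by at least as much as LAMB2. Between hypo-Migs and CD147KO-Migs the shares were 5.19% and 6.47%, and between hypo-Migs and normo-Migs they were 19.7% and 27.5%.

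LAMA4 went the other way. Its log2 ratio was −0.18 (−0.30 to −0.06) for hypo-Migs against normo-Migs, 0.19 (0.06 to 0.32) for hypo-Migs against CD147KO-Migs and 0.37 (0.24 to 0.50) for normo-Migs against CD147KO-Migs. Among the Mig libraries, CD147KO-Migs was lowest for LAMA4 and highest for LAMA5, whose log2 ratio was −0.12 (−0.14 to −0.10) for hypo-Migs against CD147KO-Migs. LAMA5 did not differ between hypo-Migs and normo-Migs beyond counting error (log2 −0.003, −0.03 to 0.02).

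The remaining genes were close among the Mig libraries. LAMB1 and LAMC1 were lower with CD147KO-Migs than with hypo-Migs by log2 ratios of 0.08 (0.03 to 0.12) and 0.06 (0.02 to 0.09). NID1 differed by 0.06 (−0.09 to 0.22) between hypo-Migs and normo-Migs. Its log2 ratio of hypo-Migs to CD147KO-Migs was 0.16 (0.003 to 0.32). LAMA3 was lower with hypo-Migs than with normo-Migs by −0.18 (−0.34 to −0.02), and its interval spanned 0 against CD147KO-Migs. The median absolute log2 ratio of the 9 genes was 0.11, 0.16 and 0.12 in the 3 comparisons, beside 0.15 in each over all genes compared. It was 0.07 in each over those averaging 1000 reads or more, but that set differs in depth from the 9 genes. LAMA3, LAMA4 and NID1 average fewer than 1000 reads, and NPNT averages more only through PBS. With no replicate library, these differences between Mig libraries cannot be told apart from the spread between cultures.

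**Figure D3:**
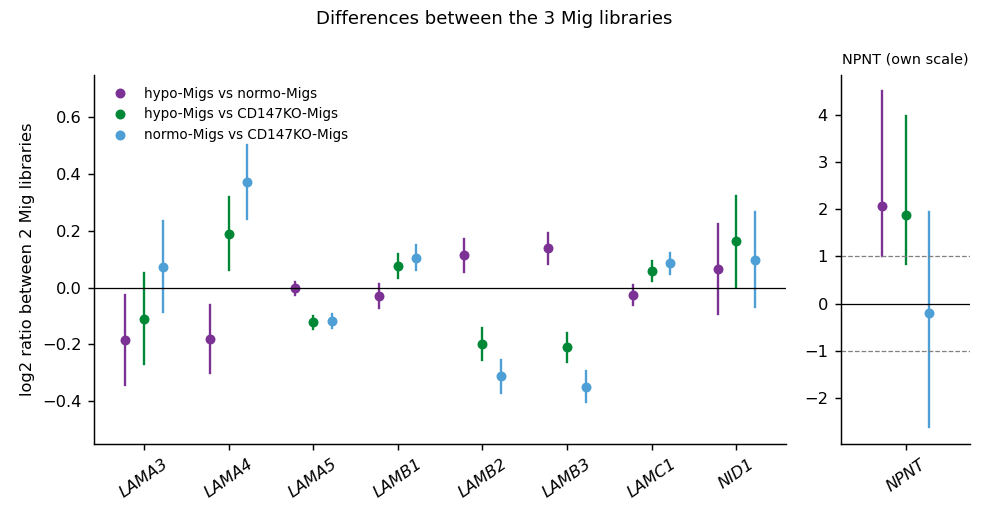
The log2 ratio between pairs of Mig libraries for each gene, with exact 95% counting intervals as bars, and NPNT on a scale of its own with dashed lines at a 2-fold difference. LAMB2 and LAMB3 lie above 0 for hypo-Migs against normo-Migs and below 0 against CD147KO-Migs, and NPNT alone passes 2-fold, in both comparisons with hypo-Migs.

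Because a laminin needs a chain of each class, the FPKM of the chains was summed within classes, adding LAMA1, LAMA2, LAMB4 and LAMC3 to the laminin genes among the 9. LAMA5 made up 92.8% of the α-chain FPKM in PBS and 90.0% to 91.7% with Migs. The second α chain was LAMA3 in PBS, at 4.25%, and LAMA4 with Migs, at 3.30% to 4.54%, while LAMA3 held 1.85% to 2.08% there. Without division by length, LAMA1 took the second place with Migs. The α-chain sum moved little, from 59.0 FPKM in PBS to between 60.5 and 64.9 FPKM.

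The β class was more evenly divided. LAMB3 held 57.2% of the β-chain FPKM in PBS, and 38.5%, 40.3% and 43.2% in the normo-Migs, hypo-Migs and CD147KO-Migs libraries. LAMB1 held 24.4% in PBS and 38.8%, 36.2% and 31.8% with Migs. LAMB2 held 18.4% in PBS and 22.8% to 25.0% with Migs. PBS thus had the highest share of LAMB3 and the lowest of LAMB1. LAMB1 led the class with normo-Migs, and LAMB3 in the other libraries. This order depends on the gene length used, which here is the union of all exons. Without division by length, LAMB1 led in all 3 Mig libraries, and with the longest transcript as the length it led with normo-Migs and hypo-Migs.

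Of the γ-chain genes LAMC1 and LAMC3 summed, LAMC1 held 88.3% in PBS and 69.5% to 72.8% with Migs, although its own level hardly differed. LAMC3 held 11.7% in PBS and 27.2% to 30.5% with Migs, and the sum of both was 44.4 FPKM in PBS and 55.7 to 57.5 FPKM with Migs. NID1 held 8.71% to 9.77% of the nidogen FPKM with Migs, and NID2 the rest.

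**Figure D4:**
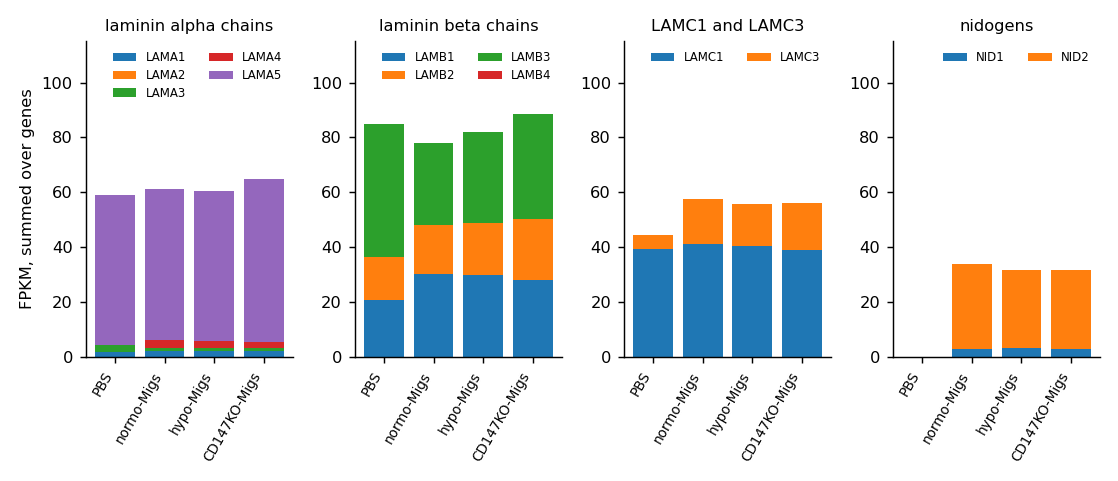
Stacked bars of FPKM summed over the laminin α chains, the β chains, LAMC1 with LAMC3, and the nidogens in each of the 4 libraries, with axes starting at 0. LAMA5 fills most of the α class throughout, LAMB3 takes 57.2% of the β class in PBS and 38.5% to 43.2% with Migs, and the nidogen sum is 0.0362 FPKM in PBS and 31.6 to 33.8 FPKM with Migs.

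Of 6 laminin, nidogen and nephronectin relatives outside the 9 genes, 4 had enough reads to compare. Of these, 2 were at least 2-fold higher in all 3 Mig libraries and 0 were lower, beside 14.2% and 7.1% of all genes compared. NID2, the second nidogen, had 8 reads in PBS and 6767, 7386 and 6533 with normo-Migs, hypo-Migs and CD147KO-Migs, so both nidogen genes had 8 reads or fewer in the PBS library. LAMC3 had 1362 reads in PBS and 4239 to 4667 with Migs, a log2 ratio of 1.56 to 1.73. LAMA1, the α chain of the early embryo, had log2 ratios of 0.28 to 0.35 to PBS. LAMA2, the muscle and nerve chain, had 5 to 35 reads per library. It was past 2-fold between hypo-Migs and each of the other Mig libraries, as were 9.34% (normo-Migs) and 9.12% (CD147KO-Migs) of all genes compared. LAMB4 had 4 reads with hypo-Migs and 0 elsewhere, and EGFL6, the paralogue of NPNT, had 0 in every library.

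Of 20 other basement membrane genes, 19 could be compared, with 9 higher in all 3 Mig libraries, 3 lower and 7 neither, beside 14.2% of all genes compared that were higher and 7.1% that were lower. Their median log2 ratio to PBS was 0.86, 1.05 and 1.14 with normo-Migs, hypo-Migs and CD147KO-Migs, beside 0.03, 0.04 and 0.03 over all genes compared. This list, like those of relatives and receptors, was chosen with earlier results of these data known. Nothing is therefore read from its counts or medians against these values. Among the 9 higher genes, SMOC2 (0 reads in PBS, 21 to 44 with Migs) and FREM2 (0 and 15 to 17) rest on few reads. SPARC, a collagen-binding glycoprotein, had 0 reads in PBS and 13404 to 16845 with Migs. With PBS set at 3 reads it was 4526-fold higher or more, and its counting intervals began at 3680-fold or above. COL4A6, a minor collagen IV chain, had 27 reads in PBS and 3422 to 4146 with Migs. The major collagen IV chains that nidogen binds were not 2-fold different, with log2 ratios of −0.58 to −0.73 for COL4A1 and between −0.06 and 0.12 for COL4A2. Among the heparan sulfate proteoglycans, HSPG2 (perlecan) was lower with Migs, with log2 ratios of −1.40 to −1.53, and so was AGRN (agrin), with −1.01 to −1.19, whereas COL18A1 (collagen XVIII) was higher, with 4.37 to 4.47. FBLN1 (fibulin-1, a matrix protein that binds laminin and nidogen), with 22646 reads in PBS and 12589 to 14702 with Migs, stayed short of 2-fold. None of the 19 passed 2-fold between any pair of Mig libraries, beside 9.34%, 9.12% and 9.69% of all genes compared. Among genes averaging 50 reads or more, as most of the 19 do, the shares were 0.647%, 0.544% and 0.691%.

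Of 17 receptor genes and their partners, 16 could be compared, with 1 higher in all 3 Mig libraries (ITGA7), 1 lower (ITGA6) and 14 neither. These are 6.25% in each direction, against 14.2% and 7.1% of all genes compared. ITGA6, whose product binds the α3 and α5 laminins, had 7998 reads in PBS and 3431 to 4091 with Migs, a log2 ratio of −1.10 to −1.24. ITGB4, its partner in hemidesmosomes, was higher with Migs by 0.51 to 0.67, and ITGB1, the common β subunit, by 0.52 to 0.65. ITGA3, another subunit of laminin receptors, lay between −0.27 and −0.39, and the dystroglycan gene DAG1 between −0.31 and −0.38. BCAM, a receptor for the α5 chain, lay between 0.27 and 0.39. RPSA, which encodes a ribosomal protein also named the laminin receptor, had the most reads of the list, 38898 to 43908. ITGB6, an integrin β subunit of epithelia, had 35 reads with normo-Migs and 12 with hypo-Migs. It was the only receptor gene past 2-fold between a pair of Mig libraries, beside 9.34% of all genes compared for this pair.

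**Figure D5:**
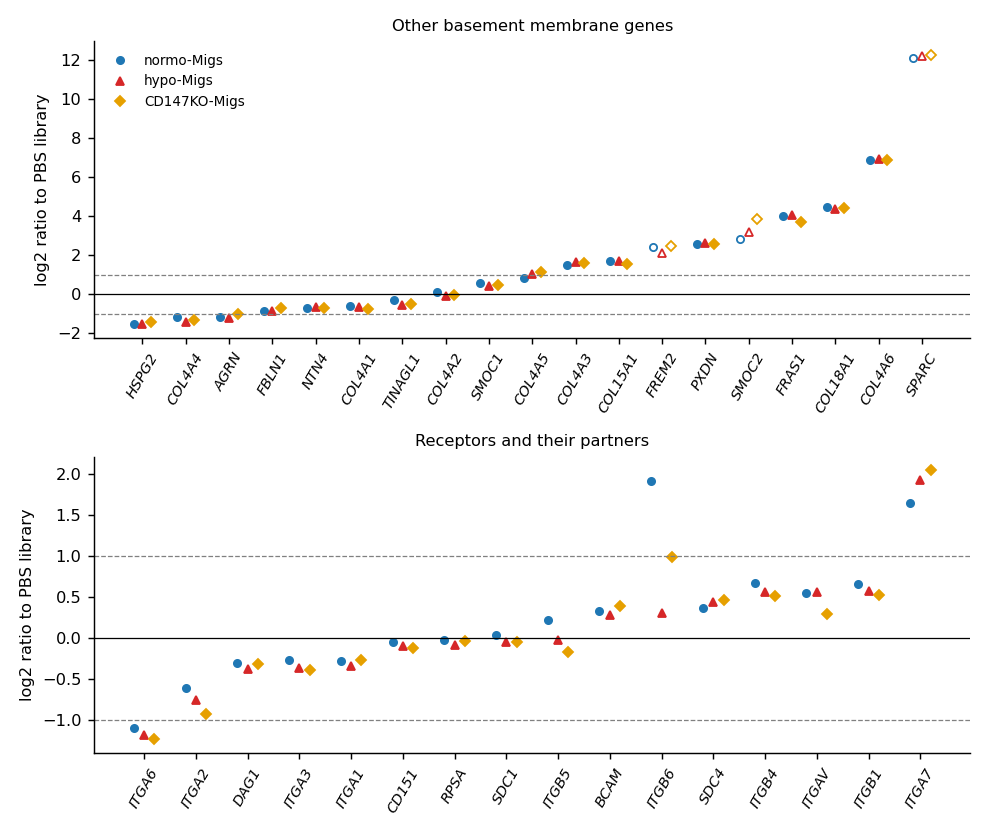
The log2 ratio of each Mig library to the PBS library for 19 other basement membrane genes (top) and 16 receptors and partners (bottom). Genes are ordered by the ratio with hypo-Migs, with dashed lines at 2-fold. Open symbols are for genes at 0 reads in PBS, drawn with PBS set to 3 reads. The top panel runs from HSPG2, between −1.40 and −1.53, to SPARC, and the 3 Mig symbols of a gene lie close together in most cases.

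The genes whose pattern was most like that of NPNT were found by the distance between log2 CPM profiles over the 4 libraries, each centred on its mean, among 12187 protein-coding genes averaging 50 reads or more. These were MAL2 (distance 1.58), NCCRP1 (2.14) and ESRRG (2.20). MAL2, a membrane protein of polarized epithelial cells, had 2582 reads in PBS and 7, 11 and 3 with normo-Migs, hypo-Migs and CD147KO-Migs. NCCRP1 had 357 reads in PBS and 0, 4 and 0 with Migs in the same order, and ESRRG had 414 and 0 in each. Like NPNT, these genes average 50 reads or more only through PBS. Their values with Migs rest on few or no reads and on the reads added before the log2. The nearest to LAMC1 were PAFAH1B2 (0.0108), DCTN4 (0.0123) and SNW1 (0.0129), with levels that differed little between libraries. Likeness over 4 libraries describes levels in these libraries and says nothing of shared control.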

How the data were processed

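RNA of MHCC-97H cells was extracted with TRIzol, and the labels name a SMARTER mRNA-Seq kit. The submitters' processing notes list CASAVA 1.8, fastp, HISAT2 2.0.5, featureCounts 1.5.0-p3 and hg38. The authors deposited raw counts, the reads on each gene without normalization, and FPKM, the same reads divided by gene length and library size. Genes were matched by Ensembl identifier, since 15 names differed between the tables, and all 58735 had GENCODE release 29 coordinates. Computations used R 4.3.3, edgeR 4.0.16 (TMM), DESeq2 1.42.0 (size factors only) and Python 3.11.15. Counts were scaled by TMM (factors 0.986 to 1.02), and every gene reaching 10 reads in any library was compared, as a log2 ratio with a prior count of 2. Intervals are exact (Clopper-Pearson, 95%) and use the reads without the prior count. With 1 library per condition there was no test, and a 2-fold difference was the criterion. Levels between genes were compared in FPKM. The ratios, calls and intervals were tried on simulated counts with counting error only, scaled by library totals. TMM scaling and spread between cultures were not part of this trial. The members and lists were chosen with earlier results of these data known. The genes named are the 9 members, 6 laminin, nidogen and EGFL6 relatives (another gene named by the rule is not reported here), and of each list the 3 genes with the most reads and the defining laminin, nidogen or NPNT partners, together with the 3 genes most like NPNT and LAMC1. COL4A6, COL18A1, SMOC2, FREM2, ITGA7, ITGB6, ADRM1, DLD, AC109361.2 and single marker genes were named after their values were seen. Alternatives concerned scaling, filter, prior count, FPKM, gene length and chain lengths.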

Additional observations from a re-analysis of the deposited data

How the results depend on the processing

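No replicate could be left out, and no paired analysis was possible because each condition had 1 library. The count of 2 genes higher in all 3 Mig libraries was the same under every alternative tried. The count lower in all 3 was 2 in place of 1 with library totals alone, LAMA3 being added. The gene past 2-fold between hypo-Migs and each other Mig library was lost (0 genes) with log2(FPKM + 1) and log2(FPKM + 0.1). None of the 54 log2 ratios per setting that passed 2-fold changed sign, while LAMA5 and LAMC1, near 0, did. Over all genes, a mean of at least 50 reads left 13601 genes, with 1689 higher and 638 lower than PBS and 88, 74 and 94 past 2-fold between Mig libraries. These counts were 881, 415, 56, 80 and 66 with log2(FPKM + 1). With log2(FPKM + 0.1) the pairs gave 1021, 1005 and 1037, and with no filter they gave 5112, 4966 and 5930, with 2595 genes lower than PBS. The share of LAMA5 among α chains without division by length was 92.4%, 90.4% and 90.9% in PBS, normo-Migs and hypo-Migs. With the longest transcript, an alternative chosen after seeing the data, it was 91.5%, 87.2%, 87.9% and 89.5% in PBS, normo-Migs, hypo-Migs and CD147KO-Migs. The share of LAMB3 among β chains was 45.2%, 27.6%, 29.3% and 32.0% without length and 52.4%, 33.7%, 35.6% and 38.5% with the longest transcript. Scaling over the 3 Mig libraries alone, also chosen after seeing the data, left the counts among the 9 genes as they were. Depth limits NPNT with Migs and LAMA4 in PBS, where few reads were counted.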
